A study of Mus musculus with 4 samples.

Results

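Tight junctions are the belts that seal neighbouring epithelial or endothelial cells to each other. Their strands are built from claudins, multi-pass membrane proteins that set which ions cross between cells, together with MARVEL proteins such as occludin. Junctional adhesion molecules stand beside the strands, zonula occludens and cingulin proteins tie them to actin inside the cell, and the PAR and Crumbs polarity complexes place them. In lung, alveolar epithelium is known for claudins 3, 4 and 18 and endothelium for claudin 5.

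Members were taken by symbol from the array's annotation: the numbered claudins, zonula occludens proteins, occludin and the other MARVEL proteins, cingulins, junctional adhesion molecules and the PAR3, PAR6, PATJ and CRB3 polarity proteins. This gave 41 genes of 30142 measured, 23 of them claudins, each read by 1 transcript cluster. The cluster that the annotation calls Cldn25 carries the Entrez identifier of Cldnd1, a claudin domain protein outside the numbered family, and is called Cldnd1 here.

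Values come from lung cells without CD45, the surface marker of leukocytes, of C57BL/6 mice. One group had received bleomycin (BLM), a DNA-damaging drug that induces lung injury and fibrosis, and the other phosphate-buffered saline (PBS), both into the trachea, and cells were taken 10 days later. Each group has 2 arrays. The labels do not state whether the arrays of a group are different mice, and the p-values reflect no more than the scatter between these samples, possibly a technical one.

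All values are log2 expression as deposited. Each difference is BLM minus PBS and carries its standard error (SE), with n = 2 per group. Rose and fell are kept for genes whose limma p, adjusted by Benjamini-Hochberg over all 30142 genes, was under 0.05. Xist was at 5.60 and 5.43 on the BLM arrays, against 15.86 and 15.61 on the PBS arrays, and the labels give no sex, so treatment and sex cannot be told apart for any result. Ptprc, which encodes CD45, was at 7.19 and 7.20 on the BLM arrays, against 6.30 and 6.21 on the PBS arrays, and rose by 0.94 (SE 0.08, adjusted p = 0.00166). The members lay close within a group, with a mean absolute gap of 0.119 between the BLM arrays and 0.135 between the PBS arrays, against 0.381 to 0.405 between arrays of different groups. All genes showed the same pattern, with gaps of 0.134 (BLM) and 0.157 (PBS), against 0.329 to 0.342 between groups.

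Of the 41 members, 4 rose and 10 fell, and 27 did not pass. Those that rose were Cldn4, Pard6g, Jam2 and Cldn6. Those that fell were Cldn3, Cldn7, Cldn10, Cldn23, Ocln, Tjp3, Cgn, Cgnl1, Pard3 and Patj. The share called, 34.1%, stands beside 25.3% of all genes tested, of which 15.2% rose and 10.1% fell. Levels differ between these sets, since 28 members lie at or above the median level of all genes, 6.03. Among those 28, 10 fell (35.7%) and 3 rose (10.7%), against 17.4% and 25.3% of all genes at or above that level. Of the 13 members below it, Cldn6 alone passed (7.69%), a share close to the 7.96% of all genes below that level. Of the members called, only Cldn4 and Pard6g differed at least 2-fold, where 5.14% of all genes both passed and differed at least 2-fold. BLM lay above PBS without overlap for 14 members and below for 16, where 38% of all genes lay above, 25.3% below and 63.3% either way. The median difference was -0.05 for the members and 0.05 for all genes.

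**Figure D1:**
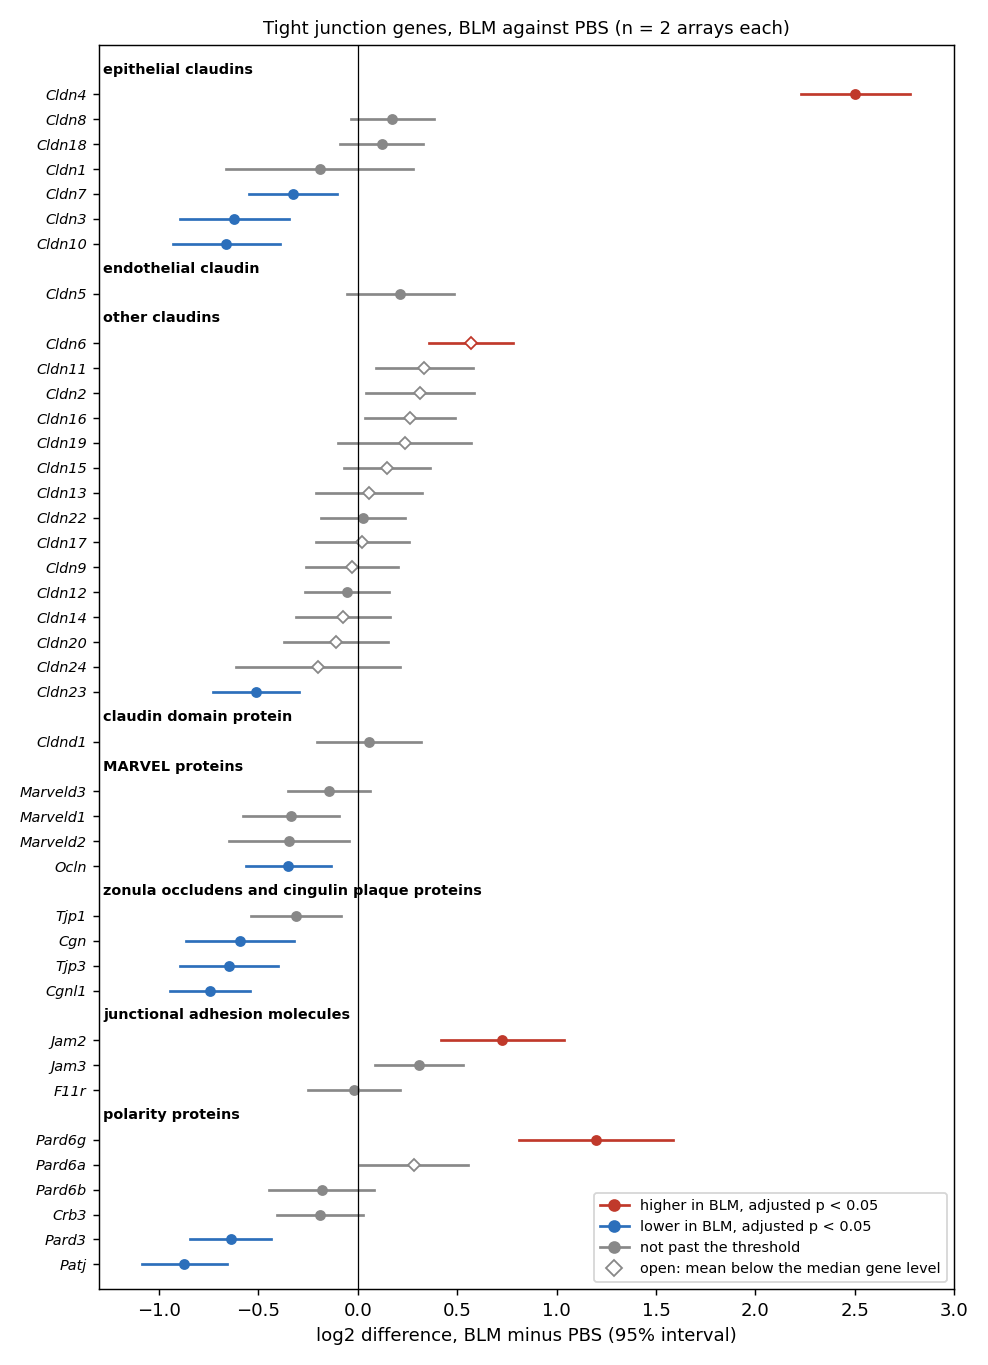
Log2 difference between BLM and PBS (x axis, points with 95% intervals, n = 2 arrays per group) of the 41 tight junction genes, grouped by role. Cldn4 at 2.50 stands far to the right of the rest, and all 4 MARVEL genes and all 4 plaque genes lie left of 0.

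Among 7 claudins listed as epithelial, 1 rose, 3 fell and 3 did not pass. Cldn4, a sealing claudin of alveolar and airway epithelium, was at 10.78 and 10.58 on the BLM arrays, against 8.25 and 8.10 on the PBS arrays. It rose by 2.50 (SE 0.11, adjusted p = 0.000375), or 5.67-fold, and both BLM values lay more than 2 log2 units above both PBS values. Cldn3, another barrier claudin of the same epithelia, was at 9.50 and 9.26 on the BLM arrays, against 9.97 and 10.03 on the PBS arrays. It fell by 0.62 (SE 0.11, adjusted p = 0.0132), to 0.650 of its PBS level, with no overlap between groups. Cldn3 no longer passed once BLM replicate 2 was left out (adjusted p = 0.0604), nor once PBS replicate 2 was (0.0533).

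Cldn3 and Cldn4 are direct neighbours on mouse chromosome 5, with 0 genes listed between them in the RefSeq gene table, and they moved in opposite directions. The log2 value of Cldn4 minus that of Cldn3 was 1.28 and 1.32 on the BLM arrays, against -1.71 and -1.93 on the PBS arrays, a shift of 3.12. The levels come from different probes, so only the shift between arrays can be read. With 2 arrays against 2, an exact two-sided permutation test cannot go below p = 0.333, and none was run on this shift.

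The promoter windows of these neighbours are shown because the genes lie side by side and moved apart, and that of the cingulin gene Cgn because it fell and holds a Grainyhead-like match. The windows run from 250 bases before to 50 after the start site, 5′ to 3′ along the gene, from RefSeq on GRCm38.p6. Cldn4 is at chr5:134946885-134947184 on the minus strand, Cldn3 at chr5:134985964-134986263 on the plus strand and Cgn at chr3:94786433-94786732 on the minus strand. Capitals mark matches, on either strand, to the AP-1 motif TGANTCA, the Snail-type E-box CAGGTG, the GC box GGGCGG and the Grainyhead-like motif AACCNGTT. No matches overlap one another in these windows.
Cldn4: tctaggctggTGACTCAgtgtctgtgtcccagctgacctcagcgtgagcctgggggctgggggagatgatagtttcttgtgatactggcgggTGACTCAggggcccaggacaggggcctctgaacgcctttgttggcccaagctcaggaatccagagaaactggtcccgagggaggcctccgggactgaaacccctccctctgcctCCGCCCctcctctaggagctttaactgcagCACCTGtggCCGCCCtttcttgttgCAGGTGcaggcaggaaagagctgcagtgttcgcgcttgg
Cldn3: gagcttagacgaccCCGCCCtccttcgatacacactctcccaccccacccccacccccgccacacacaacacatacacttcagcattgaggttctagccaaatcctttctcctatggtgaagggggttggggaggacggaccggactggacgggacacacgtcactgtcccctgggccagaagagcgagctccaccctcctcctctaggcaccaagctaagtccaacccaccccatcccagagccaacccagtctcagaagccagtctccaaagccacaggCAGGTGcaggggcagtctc
Cgn: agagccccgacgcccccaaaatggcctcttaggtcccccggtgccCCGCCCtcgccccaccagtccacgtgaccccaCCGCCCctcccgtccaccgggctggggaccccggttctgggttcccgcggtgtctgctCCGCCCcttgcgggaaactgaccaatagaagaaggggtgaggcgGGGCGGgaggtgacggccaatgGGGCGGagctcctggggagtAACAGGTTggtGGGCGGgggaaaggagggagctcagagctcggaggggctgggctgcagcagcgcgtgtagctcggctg

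The Cldn4 window holds 2 AP-1 matches, 2 E-boxes and 2 GC boxes, whereas the Cldn3 window holds 1 E-box, 1 GC box and no AP-1 match. The Cgn window holds 1 Grainyhead-like match and 6 GC boxes. Over all 32851 promoter windows of the table, 7.81% hold the AP-1 motif, 20.2% the E-box, 35.7% the GC box and 2.09% the Grainyhead-like motif. Windows were listed for 33 of the 41 members, 49 in all, several for some genes and partly overlapping. Of these 49, 18 hold the E-box (36.7%), 28 the GC box (57.1%), 4 the AP-1 motif (8.16%) and 2 the Grainyhead-like motif (4.08%), in Cgn and Cldn5. The TEAD motif GGAATG was in 18.4% of member windows and 14.7% of all windows, and the TATA box TATAAA in 8.16% and 13.6%. The member windows had a median GC content of 58.3%, against 52.7% for all windows. A match describes the letters and is not evidence of binding.

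Cldn10, a claudin of airway secretory epithelium with isoforms that pass cations or anions, was at 7.23 and 7.07 on the BLM arrays, against 7.89 and 7.72 on the PBS arrays. It fell by 0.66 (SE 0.11, adjusted p = 0.0101), although not without BLM replicate 2 (adjusted p = 0.0555). Cldn7, found along the sides of many epithelial cells, was at 8.41 and 8.37 on the BLM arrays, against 8.78 and 8.65 on the PBS arrays. Its fall of 0.33 (SE 0.09, adjusted p = 0.0497) lay at the threshold. The call ended without any 1 of the 4 arrays (adjusted p = 0.0646 to 0.205), with the replicate number as a block (0.0704) and with cyclic loess over all features (0.0587).

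Cldn18, whose lung form is typical of alveolar epithelium, was at 15.73 and 15.68 on the BLM arrays, against 15.62 and 15.55 on the PBS arrays. The groups did not overlap, but the difference of 0.12 did not pass (95% interval -0.09 to 0.33, adjusted p = 0.358). Cldn8, a barrier claudin of kidney tubules, differed by 0.17 (95% interval -0.04 to 0.38) and Cldn1, needed for the barrier of skin, by -0.19 (95% interval -0.66 to 0.28). Cldn1 was the least precise member, with PBS arrays at 5.91 and 6.39.

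Cldn5, the main claudin of endothelium, was at 16.98 and 16.83 on the BLM arrays, against 16.60 and 16.79 on the PBS arrays. It differed by 0.21 (95% interval -0.06 to 0.48, adjusted p = 0.216) and did not pass, with BLM replicate 2 less than 0.1 above PBS replicate 2. Set against Cldn5 within each array, the mean of the 7 epithelial claudins shifted by -0.07, described without a test. The shift was 0.013 without PBS replicate 1, -0.16 without PBS replicate 2, -0.15 with cyclic loess over all features and 0.016 with it over the tested genes, so its sign is not settled. All Cldn5 values lie above 16, the range of a 16-bit scanner. The balance hangs on Cldn4: leaving it out moved the shift to -0.47, while leaving out any other of the 7 gave -0.08 to 0.06. Taken singly, Cldn4 shifted against Cldn5 by 2.29, Cldn18 by -0.09, Cldn8 by -0.04, Cldn1 by -0.41, Cldn7 by -0.54, Cldn3 by -0.84 and Cldn10 by -0.88. The shifts of the single epithelial claudins thus ran from -0.88 to 2.29, and the mean shift of -0.07 averages shifts of opposite sign.

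**Figure D2:**
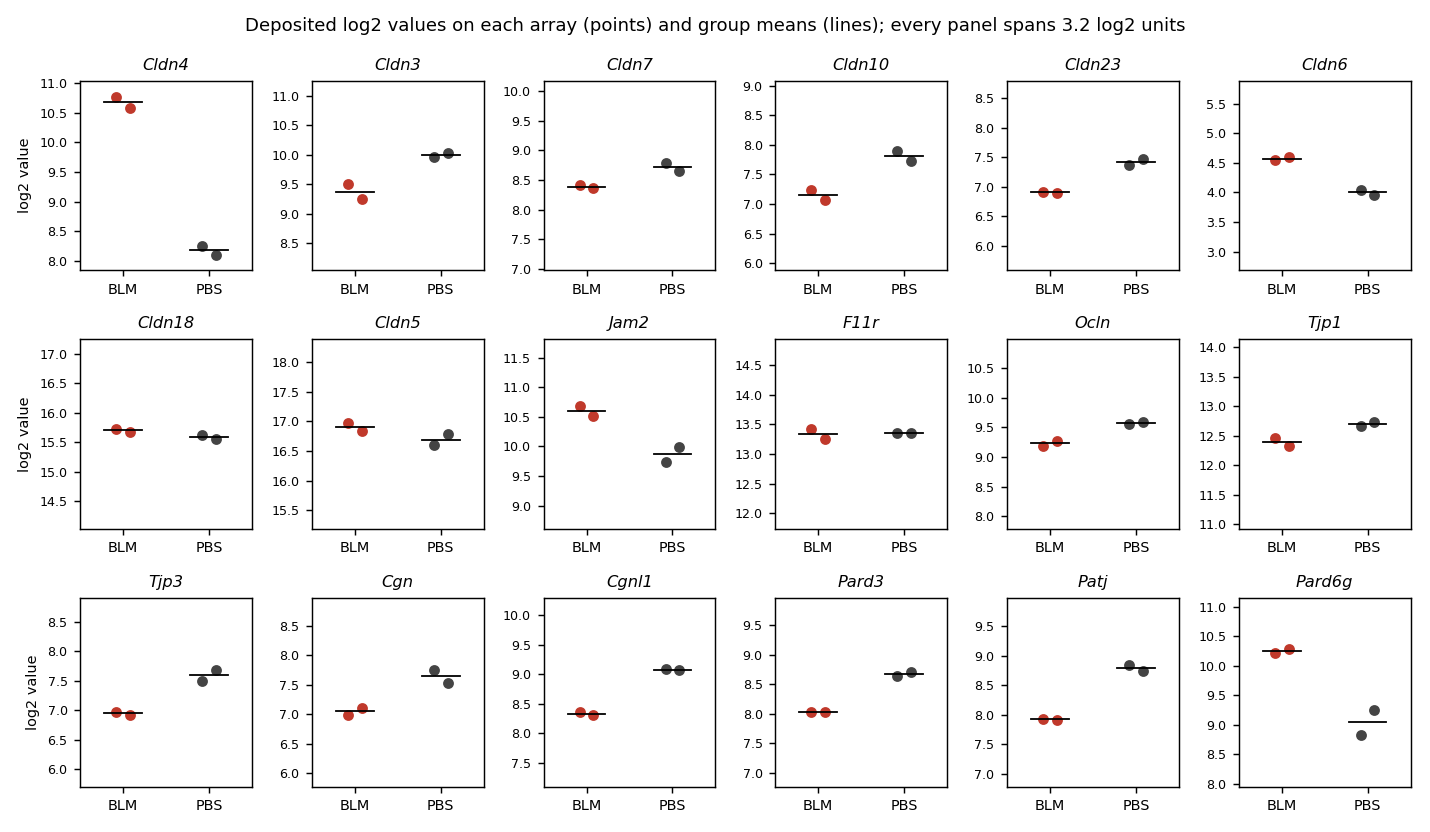
Deposited log2 values (y axis) of 18 tight junction genes on each BLM array (red, left) and PBS array (grey, right), with group means as lines. All panels span the same number of log2 units, so the separation of Cldn4, at 10.68 on average against 8.18, can be compared by eye with that of Cldn18 or F11r.

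The other 15 claudins lay mostly low and mostly did not pass. Of these, 12 were below the median level of all genes. Cldn23 was at 6.92 and 6.90 on the BLM arrays, against 7.36 and 7.48 on the PBS arrays. It fell by 0.51 (SE 0.09, adjusted p = 0.0112), but not without BLM replicate 1 (adjusted p = 0.0634) or BLM replicate 2 (0.0657). Cldn6, known from embryonic epithelia, was at 4.54 and 4.60 on the BLM arrays, against 4.04 and 3.96 on the PBS arrays. It rose by 0.57 (SE 0.08, adjusted p = 0.00744), except without BLM replicate 2 (adjusted p = 0.0509), and lies well below the median level of 6.03.

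Cldn9, the direct neighbour of Cldn6 and a claudin of the inner ear, differed by -0.03 and its groups overlapped. Cldn11, known from myelin and testis, stood at 0.33 (adjusted p = 0.0587) and passed with cyclic loess over all features (adjusted p = 0.0456). Cldn2, which forms cation pores in leaky epithelia and lies on the X chromosome, stood at 0.31 (adjusted p = 0.093), and Cldn16, of the renal magnesium pathway, at 0.26 (adjusted p = 0.0922). For all 3, both BLM values lay above both PBS values, as they did for 38% of all genes. The remaining 9, among them Cldn12, Cldn14, Cldn15 and Cldn19, differed by -0.20 to 0.24 and did not pass. Cldn22 and Cldn24, similar neighbours on chromosome 8, differed by 0.03 and -0.20, and whether the probes of either also read the other was not tested. Cldnd1 differed by 0.06 (95% interval -0.21 to 0.32).

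All 4 MARVEL genes were lower on average on the BLM arrays, without overlap, but only Ocln passed. Of all genes, 25.3% lay below without overlap, and so did 5012 of the 15071 at or above the median level, as these 4 are. Ocln, which encodes occludin, was at 9.18 and 9.28 on the BLM arrays, against 9.56 and 9.60 on the PBS arrays, and fell by 0.35 (SE 0.08, adjusted p = 0.0356). The call ended without any 1 of the arrays (adjusted p = 0.0855 to 0.193) and with the replicate block (0.0582). Marveld2, whose product tricellulin sits where 3 cells meet, differed by -0.35 (adjusted p = 0.094), and Marveld1 by -0.34 (adjusted p = 0.0566). Marveld3 differed by -0.14 (95% interval -0.35 to 0.06). Leaving out dim genes, which adjusts over fewer tests, brought Marveld1 and Marveld2 past the threshold (adjusted p = 0.0237 and 0.0466). Marveld1 also passed with the trended robust prior (0.0376) and with cyclic loess over all features (0.0301) or over the tested genes (0.0165).

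Of the 4 plaque genes, 3 fell and Tjp1 did not pass, all with BLM below PBS on both arrays, as 25.3% of all genes were. Cgnl1, the gene of paracingulin, a junction plaque protein related to cingulin, was at 8.36 and 8.31 on the BLM arrays, against 9.09 and 9.07 on the PBS arrays. It fell by 0.74 (SE 0.08, adjusted p = 0.00288), to 0.597 of its PBS level. Tjp3, the zonula occludens protein of epithelia, was at 6.97 and 6.93 on the BLM arrays, against 7.50 and 7.69 on the PBS arrays, and fell by 0.65 (SE 0.10, adjusted p = 0.00816). Cgn, the gene of cingulin, an actomyosin-binding plaque protein, was at 6.99 and 7.11 on the BLM arrays, against 7.75 and 7.54 on the PBS arrays. It fell by 0.59 (SE 0.11, adjusted p = 0.0147), although not without BLM replicate 1 (adjusted p = 0.0811).

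Tjp1, the gene of ZO-1, which epithelium and endothelium share, was at 12.46 and 12.33 on the BLM arrays, against 12.67 and 12.73 on the PBS arrays. It differed by -0.31 (SE 0.09, adjusted p = 0.0603) and passed under the filter on dim genes (0.0248), with the trended robust prior (0.0394) and with cyclic loess over all features (0.0292) or over the tested genes (0.0112).

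The junctional adhesion molecules did not move together. Jam2, found on endothelium, was at 10.68 and 10.51 on the BLM arrays, against 9.74 and 9.99 on the PBS arrays. It rose by 0.73 (SE 0.12, adjusted p = 0.0115), or 1.66-fold, except without BLM replicate 1 (adjusted p = 0.0615). Jam3, also of endothelium and other cells, was at 6.36 and 6.45 on the BLM arrays, against 6.06 and 6.15 on the PBS arrays, a difference of 0.31 (adjusted p = 0.0586). With dim genes left out, Jam3 passed (adjusted p = 0.0238), as it did after cyclic loess over all features (0.0361). F11r, which encodes JAM-A of epithelium, endothelium and platelets, was at 13.42 and 13.26 on the BLM arrays, against 13.35 and 13.36 on the PBS arrays. Its groups overlapped, with a difference of -0.02 (95% interval -0.25 to 0.21).

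The polarity genes held the next largest changes. Patj, the gene of a many-domain scaffold of the Crumbs complex, was at 7.93 and 7.91 on the BLM arrays, against 8.85 and 8.74 on the PBS arrays. It fell by 0.87 (SE 0.08, adjusted p = 0.00219), the deepest fall among the members. Pard3, the gene of the PAR3 scaffold, was at 8.03 on both BLM arrays, against 8.64 and 8.70 on the PBS arrays, and fell by 0.64 (SE 0.08, adjusted p = 0.00464).

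Pard6g, 1 of 3 genes for the PAR6 adaptor that binds atypical protein kinase C, was at 10.21 and 10.28 on the BLM arrays, against 8.83 and 9.26 on the PBS arrays. It rose by 1.20 (SE 0.15, adjusted p = 0.00492), or 2.30-fold, and the PBS arrays lay further apart than the BLM arrays. Without PBS replicate 1 the difference was 0.99, just under 2-fold, and still passed (adjusted p = 0.00902). Its paralogs did not pass: Pard6a differed by 0.28 (95% interval 0.01 to 0.56) and Pard6b by -0.18 (95% interval -0.45 to 0.08). Within arrays, Pard6g minus Pard6b shifted by 1.38 and Pard6g minus Pard6a by 0.92, given without a test. Crb3, the epithelial Crumbs protein gene, differed by -0.19 (95% interval -0.41 to 0.03).

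Of the 14 members called, 6 kept their call under every alternative that tested them, namely Cldn4, Pard6g, Tjp3, Pard3, Cgnl1 and Patj. No called member changed direction in any of the 12 alternatives.

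**Figure D3:**
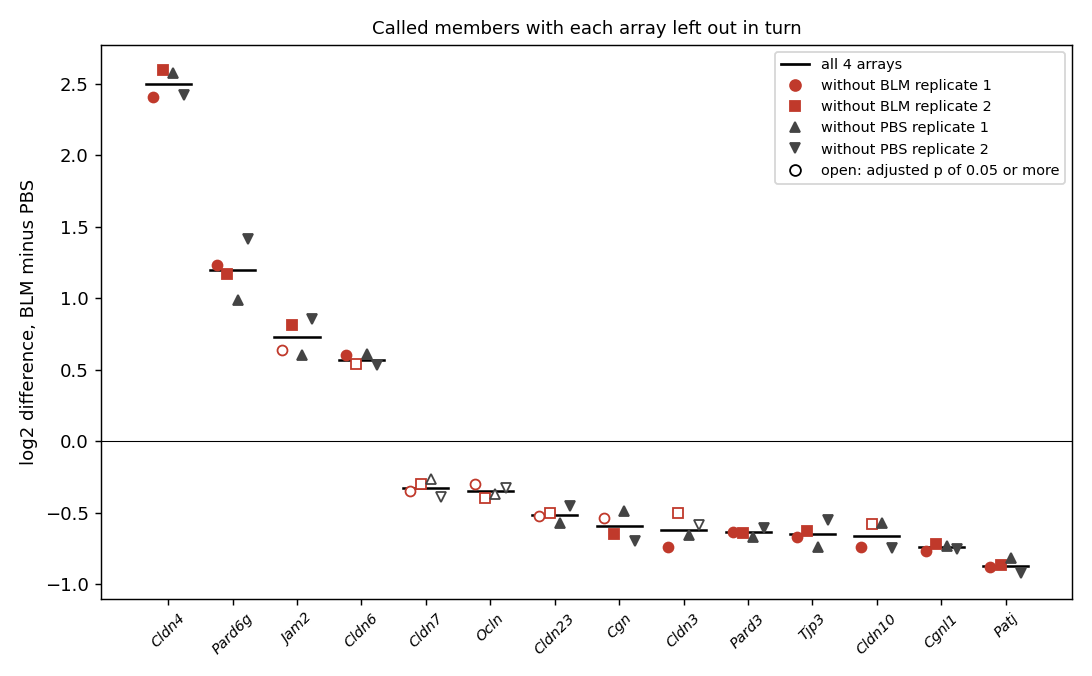
Log2 difference between BLM and PBS (y axis) of the 14 called members with all 4 arrays (line) and with each array left out (symbols), open where the adjusted p reached 0.05. The 4 symbols of Cldn4 lie between 2.41 and 2.60, and those of Cldn7 and Ocln are all open.

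Other junction genes came from lists that share the pathway with the members. Of all genes, 25.3% were called, and of those at or above the median level, where most listed genes lie, 42.7%. The shares called were 50% of other tight junction membrane proteins, 53.8% of other plaque and scaffold genes and 30.8% of other polarity genes. They were 25% of nectins, 56.25% of the transcription factors and 80% of membrane serine proteases and inhibitors. Of 8 other tight junction membrane proteins, 2 rose, 2 fell and 4 did not pass, and 1 of these 4 is Cldnd1, already counted among the members. Clmp, an adhesion molecule of the coxsackie and adenovirus receptor family, was at 8.77 and 8.58 on the BLM arrays, against 6.98 and 6.59 on the PBS arrays, and rose by 1.89 (SE 0.15, adjusted p = 0.00132). The angulin genes Ildr2 and Ildr1, whose products mark corners between cells, parted, with Ildr2 rising by 1.52 (SE 0.13) and Ildr1 falling by 0.71 (SE 0.12). Igsf5, which encodes another junctional adhesion molecule, fell by 0.42 (SE 0.08), but not without BLM replicate 1, BLM replicate 2 or PBS replicate 2.

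Of 13 other plaque and scaffold genes, 4 rose, 3 fell and 6 did not pass. Ybx3, the gene of a transcription factor that binds ZO-1, rose by 0.97 (SE 0.09) and Rab13, a junction-trafficking GTPase gene, by 0.55 (SE 0.09), although Rab13 did not pass without BLM replicate 1. Afdn, the gene of the nectin-binding scaffold afadin, fell by 0.58 (SE 0.08) and the scaffold gene Magi3 by 0.57 (SE 0.09), again not without BLM replicate 1 for Magi3.

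Of 13 other polarity genes, 1 rose, 3 fell and 9 did not pass. Prkci, the gene of the atypical protein kinase C that works with PAR3 and PAR6, was at 10.68 and 10.66 on the BLM arrays, against 11.71 and 11.64 on the PBS arrays, and fell by 1.01 (SE 0.08, adjusted p = 0.00132). Its paralog Prkcz fell by 0.54 (SE 0.08), though not without BLM replicate 1, and the lethal giant larvae gene Llgl2 by 0.77 (SE 0.09). Lin7a rose by 0.37 (SE 0.08), a call lost without any 1 of the arrays. Of 4 nectins, Nectin4 fell by 0.43 (SE 0.08), lost without BLM replicate 1, BLM replicate 2 or PBS replicate 2, and 3 did not pass.

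Transcription factors listed as regulators of junction genes included 5 that rose, 4 that fell and 7 that did not pass. Grhl2, a Grainyhead-like activator of epithelial junction genes including Cldn4, was at 7.69 and 7.51 on the BLM arrays, against 8.90 and 8.97 on the PBS arrays. It fell by 1.34 (SE 0.10, adjusted p = 0.00103), opposite in sign to Cldn4. The epithelial ETS factor gene Ehf fell by 1.92 (SE 0.10). Snai2 and Snai1, repressors of cadherin and claudin genes that bind E-boxes, rose by 1.92 (SE 0.21) and 1.11 (SE 0.16). Erg, an endothelial factor known to act on Cldn5, rose (8.67 and 8.47 on the BLM arrays, against 7.43 and 7.70 on the PBS arrays), as did Sox18, another such factor, by 0.93 (SE 0.08), where Cldn5 did not pass. All of these calls held with each array left out in turn.

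Of 5 membrane serine proteases and their inhibitors, which tune the epithelial barrier, 4 fell and 1 did not pass. Prss8, the gene of prostasin, fell by 1.77 (SE 0.15, adjusted p = 0.00152), Spint2 by 0.85 (SE 0.09) and Tmprss2 by 0.74 (SE 0.08), and St14, the gene of matriptase, by 0.48 (SE 0.08), the last not without BLM replicate 1 or BLM replicate 2.

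Cell type markers moved on the same arrays, and their part in the members' differences was not tested. Fewer cells of a type and less RNA per cell cannot be told apart in these samples. Most markers lie at or above the median level, where 25.3% of all genes rose and 17.4% fell, 42.7% called in all. The share called was 54.5% for endothelial and 22.2% for alveolar type 1 markers. Of 7 pan-epithelial markers, 3 fell and 2 rose, with a mean level of 12.83 and 12.76 on the BLM arrays, against 13.05 and 12.99 on the PBS arrays. Epcam fell by 0.96 (SE 0.08) and Cdh1 by 0.69 (SE 0.09), and the rises of Krt18 (0.30) and Krt19 (0.34) were lost without any 1 of the arrays.

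Ciliated cell markers fell in 7 of 7 cases (mean level 9.39 and 9.53 on the BLM arrays, against 11.62 and 11.61 on the PBS arrays), club cell markers in 5 of 6 (13.77 and 13.80, against 14.76 and 14.75) and alveolar type 2 markers in 9 of 10 (15.40 and 15.31, against 16.34 and 16.31). Alveolar type 1 markers rose in 2 of 9 and fell in none (9.71 and 9.69 on the BLM arrays, against 9.39 and 9.63 on the PBS arrays). The 10 members that fell, and Prss8, did so on arrays where most airway and alveolar type 2 markers also fell. On the same arrays Cldn4 rose, and Cldn18, Cldn8 and F11r did not pass. Markers of the transitional alveolar epithelium, a state of repair for which Cldn4 is itself a known marker, rose in 6 of 6 cases without Cldn4 being counted (10.26 and 10.29 on the BLM arrays, against 8.66 and 8.82 on the PBS arrays). Among them Itgb6 rose by 2.17 (SE 0.10) and Cdkn1a by 2.88 (SE 0.11). This list, like the others, was chosen with earlier results of these data known. Which cells of these mixed samples held its transcripts was not tested.

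Endothelial markers rose in 4 of 11 cases and fell in 2, with a mean level of 11.96 and 11.79 on the BLM arrays, against 11.48 and 11.62 on the PBS arrays. Cdh5, the endothelial cadherin gene, rose by 0.85 (SE 0.14), Emcn by 2.63 (SE 0.14) and Robo4 by 0.67 (SE 0.09), while Vwf fell by 0.86 (SE 0.09). The other rise, of Kdr by 0.425 (SE 0.10), was lost without any 1 of the arrays. The other fall, of Ptprb by 0.55 (SE 0.10), was lost without BLM replicate 2 or PBS replicate 2. Lymphatic markers rose in 3 of 4 and Lyve1 fell (10.20 and 10.08 on the BLM arrays, against 9.16 and 9.30 on the PBS arrays), with Prox1 up by 1.90 (SE 0.09). Jam2 rose, and Cldn5 did not pass, on arrays where 4 of 11 endothelial markers rose, 2 fell and 5 did not pass. Which cells held the Jam2 transcripts was not tested. Fibroblast and pericyte markers rose in 6 of 7, mesothelial markers in 4 of 6 and leukocyte markers in 5 of 8. The rise of the mesothelial marker Upk3b was lost without BLM replicate 1 or BLM replicate 2. Those of the leukocyte markers Itgam and Csf1r were lost without any 1 of the arrays and without BLM replicate 1, respectively. Of the leukocyte markers, Clec7a rose by 5.43 (SE 0.18) and Cd68 by 2.44 (SE 0.15). The 1 that fell was Lyz2, a lysozyme gene that alveolar type 2 cells also express, by 1.14 (SE 0.09, adjusted p = 0.00126). Of the 2 Schwann cell markers measured, both were below the median level of all genes.

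**Figure D4:**
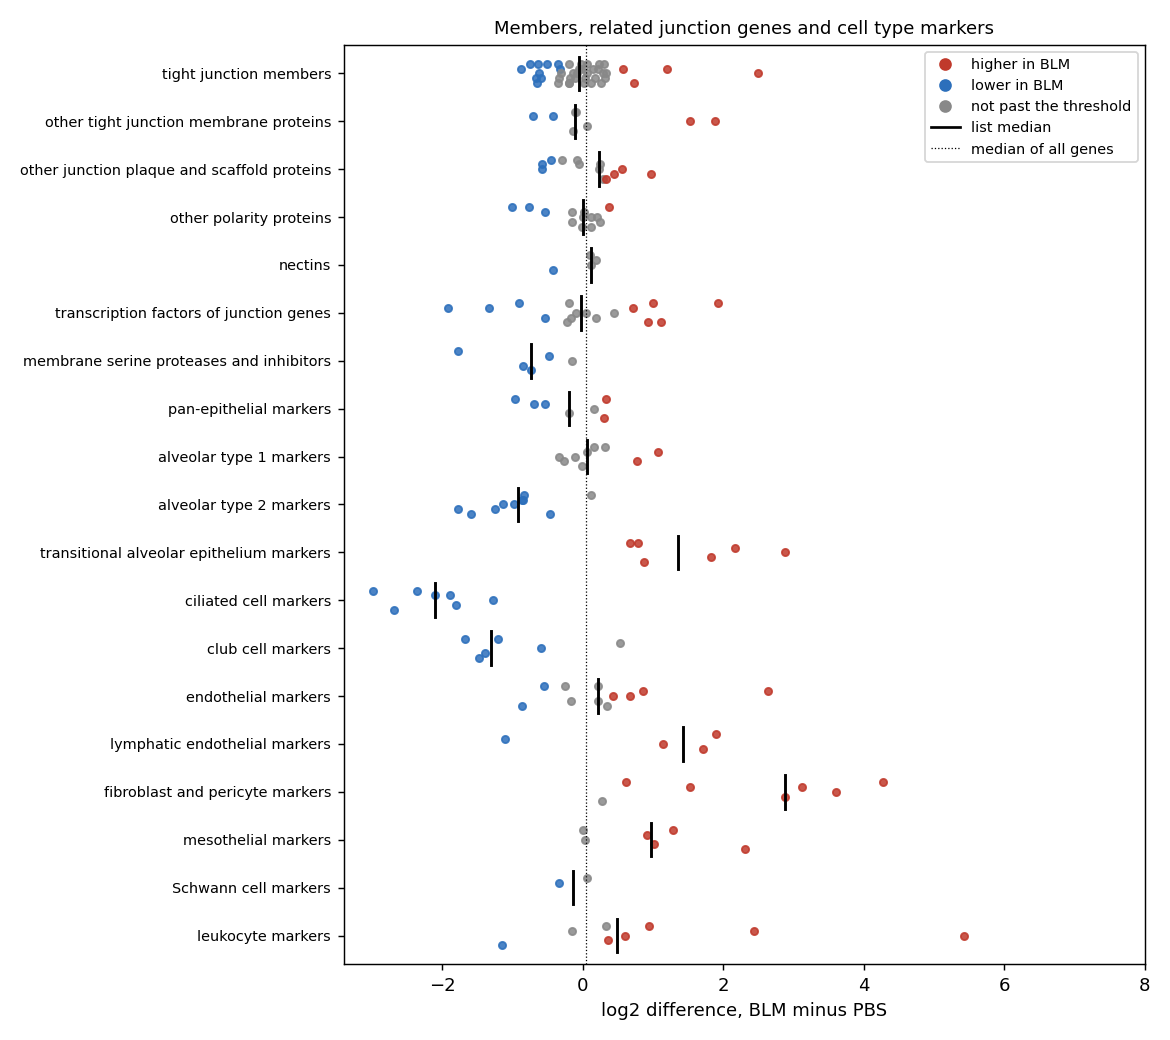
Log2 differences between BLM and PBS (x axis) of single genes (points) in the tight junction members and in each related or marker list (rows), with list medians as bars and the median of all genes, 0.05, as a dotted line. The members centre near 0 with Cldn4 at 2.50 as their highest point. List medians run from -2.10 for ciliated cell markers to 2.88 for fibroblast and pericyte markers, with transitional epithelium markers at 1.35.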

How the data were processed

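Total RNA of 4 samples was labelled with biotin for Affymetrix arrays, per the labels' protocols. The deposited log2 values, 1 per transcript cluster, came from the authors' use of RMA and Affymetrix Expression Console, both named in the submitters' processing notes. Their versions, the build and any later scaling: not given in the sources used here. On each array 669 to 704 features exceed 16, the range of a 16-bit scanner, so folds rest on a scale that is not fully stated. The number of arrays limits the precision, and no detection calls were used.

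Of 32750 annotated clusters, 30604 had 1 symbol and 2146 several; 827 symbols were updated through Entrez identifiers, and the highest-mean cluster per gene left 30142 genes. Testing used limma 3.58.1 under R 4.3.3 (lmFit, eBayes, two-sided, Benjamini-Hochberg over all genes), after the script was tested on simulated data. Intervals are 95%. The members and lists were chosen with earlier results of these data known. Any member could be named, and of each other list up to 4 called genes with the largest differences. Erg, Sox18, Krt18, Kdr, Ptprb, Itgam and Csf1r fall outside this rule and were chosen after their values were seen. Alternatives were the replicate block, each array left out, a filter on dim genes, mean of a gene's rows, a trended robust prior, median centring, cyclic loess and leaving out X and Y genes, with cyclic loess over the tested genes alone added after seeing the data.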

Additional observations from a re-analysis of the deposited data

How the results depend on the processing

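With each array left out in turn, calls over all genes numbered 4003 to 5956, against 7629 with all 4 arrays; members that rose numbered 3 to 4, against 4, and members that fell 5 to 8, against 10. A fit on 3 arrays takes its spread from 1 pair, and the lone sample is assumed to vary like the other group. The shift of the epithelial claudins against Cldn5 ranged from -0.16 to 0.013 there, changing sign to 0.013 without PBS replicate 1, and was -0.15 with cyclic loess over all features and 0.016 with it over the tested genes, against -0.07; the cause was not tested. That scaling, chosen after seeing the data, also moved the share of all calls that were higher to 49.6%, against 60.1%, and gave 4 members rising and 12 falling; cyclic loess over all features gave 61% and 6 rising and 11 falling. The replicate block gave 6742 calls over all genes, with 4 members rising and 8 falling, the lost calls being Cldn7 and Ocln. The numbers do not pair the samples by the labels, and the deviations of same-numbered arrays correlated at 0.014 across genes. The filter on dim genes gave 4 rising and 13 falling of 28 members tested, and the trended robust prior 4 and 12. Median centring, the mean of a gene's rows and leaving out X and Y genes left 4 rising and 10 falling. Background correction from the scanner signal and array batches were not analysed here. For the 13 members below the median level of all genes, dimness limits what can be seen.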
